A study of Homo sapiens with 18 samples.

Results

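Expression of 44 genes that act at DNA replication origins and forks was examined in diffuse large B cell lymphoma lines exposed to a BCL6 inhibitor. The genes were taken from a list of replication factors by name, and all 44 were among the 23250 gene symbols measured. They were sorted into 11 role groups: the origin recognition complex (6 genes), the licensing loaders and their inhibitor (3), the MCM2-7 helicase core (6), other MCM proteins (2), the DBF4-dependent kinase (2), CDC45 and GINS (5), polymerase alpha-primase (4), polymerases delta and epsilon (5), the sliding clamp and its loader (6), Okazaki fragment maturation (2) and single-strand DNA binding (3). The series concerns the cooperation of EZH2, a histone methyltransferase, and BCL6, a transcriptional repressor of germinal centre B cells, at Polycomb-bound promoters. The human cell lines SUDHL6, Farage and SUDHL4 were each treated with 79-6.1085, the BCL6 inhibitor, at 10 µM for 12 h, or with DMSO, the solvent control, for 12 h. Each of the 6 groups had 3 RNA-seq libraries, numbered 1 to 3, and no other agent or genetic change was labelled. The labels do not say that the 3 libraries of a group came from separate cultures, and p-values therefore reflect no more than the spread among these libraries, which may be technical. Levels are in CPM, the read count of a gene scaled to a common library total, not corrected for gene length, so levels were compared for each gene between libraries and not between genes.

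Replication in human cells begins with licensing: the origin recognition complex, CDC6 and CDT1 load the ring-shaped MCM2-7 helicase onto origin DNA, and geminin (GMNN) binds CDT1 to prevent reloading. At the start of S phase, the kinase CDC7, activated by its regulatory subunit DBF4, phosphorylates MCM2-7, and CDC45 and the GINS complex join it to form the active helicase. Polymerase alpha-primase then lays down primers, polymerases epsilon and delta extend the leading and lagging strands with the clamp PCNA loaded by the RFC complex, and FEN1 and LIG1 process and join Okazaki fragments. Many of these genes are known targets of E2F transcription factors, which raise their expression around the G1-to-S transition, and germinal centre B cells, which depend on BCL6, are among the fastest dividing cells of the body.

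The libraries held 6289956 to 25492726 reads in listed genes, recovered from the CPM values, and the 2 shallowest were the third libraries of treated and DMSO SUDHL6. In the shallowest library 3 reads corresponded to 0.3624 CPM, and the lowest value of any replication gene in any library was 1.107 CPM, so none was listed at 0. The B cell markers MS4A1, CD79A and PAX5 were present in every library, with sums of 1485 to 2255 CPM in treated and 3811 to 3981 CPM in DMSO SUDHL6, 1169 to 1281 CPM in treated and 2381 to 2529 CPM in DMSO Farage, and 2607 to 2706 CPM in treated and 4242 to 4564 CPM in DMSO SUDHL4. The 3 T cell markers listed (CD3D, CD3E and CD2) summed to at most 1.71 CPM and were at 0 in all 6 SUDHL6 libraries. The monocyte list (CD14, LYZ, CSF1R and CD68) summed to 12.9 to 20.6 CPM in treated and 4.82 to 5.82 CPM in DMSO SUDHL6, 7.14 to 7.56 CPM in treated and 4.51 to 5.11 CPM in DMSO Farage, and 10.2 to 13.5 CPM in treated and 6.67 to 7.59 CPM in DMSO SUDHL4. The fibroblast list (COL1A1, COL1A2, DCN and PDGFRB) summed to at most 0.121 CPM in SUDHL6, to 0.977 to 1.39 CPM in treated and 5.43 to 7.31 CPM in DMSO Farage, and, through DCN, to 17.4 to 20.5 CPM in treated and 59.1 to 66.6 CPM in DMSO SUDHL4. These marker sums moved with treatment, and their part in the results was not tested.

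Promoters of 5 of the genes are shown because their responses span the range described here: POLA1, CDC7 and MCM6 fell, DBF4 rose, and POLE did not pass the test over the lines. Each line gives the 160 bases before the transcription start in RefSeq (GRCh38.p14), 5′ to 3′ on the gene's strand, with matches to the E2F letters or to CCAAT on either strand in capitals.
POLA1, chrX:24693758-24693917, plus strand: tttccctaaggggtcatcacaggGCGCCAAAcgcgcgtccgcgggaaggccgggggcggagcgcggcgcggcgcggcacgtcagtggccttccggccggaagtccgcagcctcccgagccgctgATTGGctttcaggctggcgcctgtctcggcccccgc
CDC7 (the second of its 2 starts), chr1:91500952-91501111, plus strand: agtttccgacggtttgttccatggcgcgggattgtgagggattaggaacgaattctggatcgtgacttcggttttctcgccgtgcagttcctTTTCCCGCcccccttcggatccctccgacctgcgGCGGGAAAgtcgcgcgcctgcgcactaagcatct
MCM6, chr2:135876444-135876603, minus strand: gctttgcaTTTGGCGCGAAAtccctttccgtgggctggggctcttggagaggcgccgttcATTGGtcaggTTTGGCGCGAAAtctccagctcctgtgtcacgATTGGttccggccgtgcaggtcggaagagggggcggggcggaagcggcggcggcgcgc
DBF4, chr7:87876333-87876492, plus strand: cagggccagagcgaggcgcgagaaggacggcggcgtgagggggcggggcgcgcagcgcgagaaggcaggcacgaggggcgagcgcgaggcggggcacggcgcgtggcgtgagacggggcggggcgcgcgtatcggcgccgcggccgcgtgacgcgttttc
POLE, chr12:132687343-132687502, minus strand: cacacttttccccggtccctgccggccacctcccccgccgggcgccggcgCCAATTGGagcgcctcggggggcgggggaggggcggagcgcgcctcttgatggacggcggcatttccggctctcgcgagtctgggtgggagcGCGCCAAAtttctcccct
The E2F letters searched were TTTCCCGC, TTTGGCGC, TTTCGCGC and TTTGCCGC. MCM6 has overlapping matches on the 2 strands, and the window of DBF4 holds neither motif.

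RefSeq promoters were found for 38 of the 44 genes, with no entry for MCM4, MCM5, GINS4, POLD3, RPA2 and RPA3, and 8 of the 38 have several starts. Within 250 bases before the start, 14 of 38 replication genes (36.8%) held the E2F letters on either strand, against 928 of 27305 genes with a promoter (3.4%) and 494 of 8891 such genes that were tested for expression (5.56%). The 14 were ORC3, CDT1, GMNN, MCM3, MCM6, MCM7, CDC7, GINS2, POLA1, POLA2, POLE, PCNA, RFC3 and LIG1. CCAAT, the letters bound by NF-Y, occurred in 22 promoters (57.9%), against 37% of all genes with a promoter and 42.3% of those tested. The letters TTCNNNGAA, which resemble the BCL6 motif, occurred in 4 promoters (10.5%; ORC4, CDC7, PRIM1 and RFC2), against 8.09% and 7.68%. The median change with the inhibitor, as the mean log2 difference over the lines, was -1.58 in the 14 genes with the E2F letters (range -2.25 to -0.13) and -1.38 in the 24 without (range -2.20 to 0.77). The 2 ranges overlapped over most of their length, and a match describes letters and not a bound site.

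Most of the replication genes had lower mRNA levels in inhibitor-treated cells than in DMSO cells in all 3 lines. Tested with limma on log2(CPM + 1) and adjusted over 12769 genes, 40 of 44 fell in SUDHL6 and 1 rose, where 41.3% of all tested genes fell and 26.8% rose. In Farage 39 fell and 1 rose, against 46.5% and 25.4% of all tested genes. In SUDHL4 41 fell and 1 rose, against 46.2% and 24.3%. Because so many genes changed, a change of at least 2-fold was also counted: 28 replication genes fell that far in SUDHL6 (16.2% of tested genes), 28 in Farage (19%) and 36 in SUDHL4 (20%). None rose that far in SUDHL6 (7.12%) or SUDHL4 (7.49%), and in Farage 1 did, DBF4 (7.38%). In these bulk samples, fewer cells of a type and less RNA per cell cannot be told apart.

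Averaged over the lines, 41 of the 44 genes fell (93.2%, against 53.8% of all tested genes), 1 rose (30.1% of tested genes), and 32 fell by at least 2-fold (72.7%, against 16%), while none rose that far (6.08%). The gene that rose was DBF4, and POLE and RPA2 did not pass the test. In each of the 3 lines separately, 38 genes fell (86.4%, against 28.3%). The median log2 difference of the 44 genes was -1.27 in SUDHL6, -1.10 in Farage and -1.71 in SUDHL4, beside -0.13, -0.22 and -0.21 for all tested genes. With the CPM rescaled by median-of-ratios factors, the median over all tested genes in the mean of the lines was -0.05 rather than -0.24, and 47.1% rather than 35.8% of the calls were to higher levels. On that scale 39 replication genes fell (44.3% of all tested genes), 27 fell by at least 2-fold (10.8%), DBF4 rose by at least 2-fold (9.47%), and the median of the 44 genes was -1.17. By line, the genes lower by at least 2-fold were then fewer: 24 in SUDHL6 (12.2%), 18 in Farage (13.2%) and 28 in SUDHL4 (13.7%).

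In the individual libraries, all 3 treated values lay below all 3 DMSO values for 36 genes in SUDHL6 (36.5% of all tested genes), 41 in Farage (53.2%) and 41 in SUDHL4 (51.6%), and for 36 genes in every line (28.9%). The reverse order was seen for none in SUDHL6 (24.4%), for DBF4 in Farage (30.6%) and for DBF4 and POLE in SUDHL4 (28.9%). The groups overlapped in SUDHL6 for ORC4, ORC6, MCM5, MCM6, DBF4, POLE, PCNA and RPA2, in Farage for POLE and RPA2, and in SUDHL4 for ORC4. The largest falls over the lines were those of POLA1 (log2 difference -2.25) and GINS1 (-2.20), and 0.744% and 0.885% of all tested genes fell further.

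**Figure D1:**
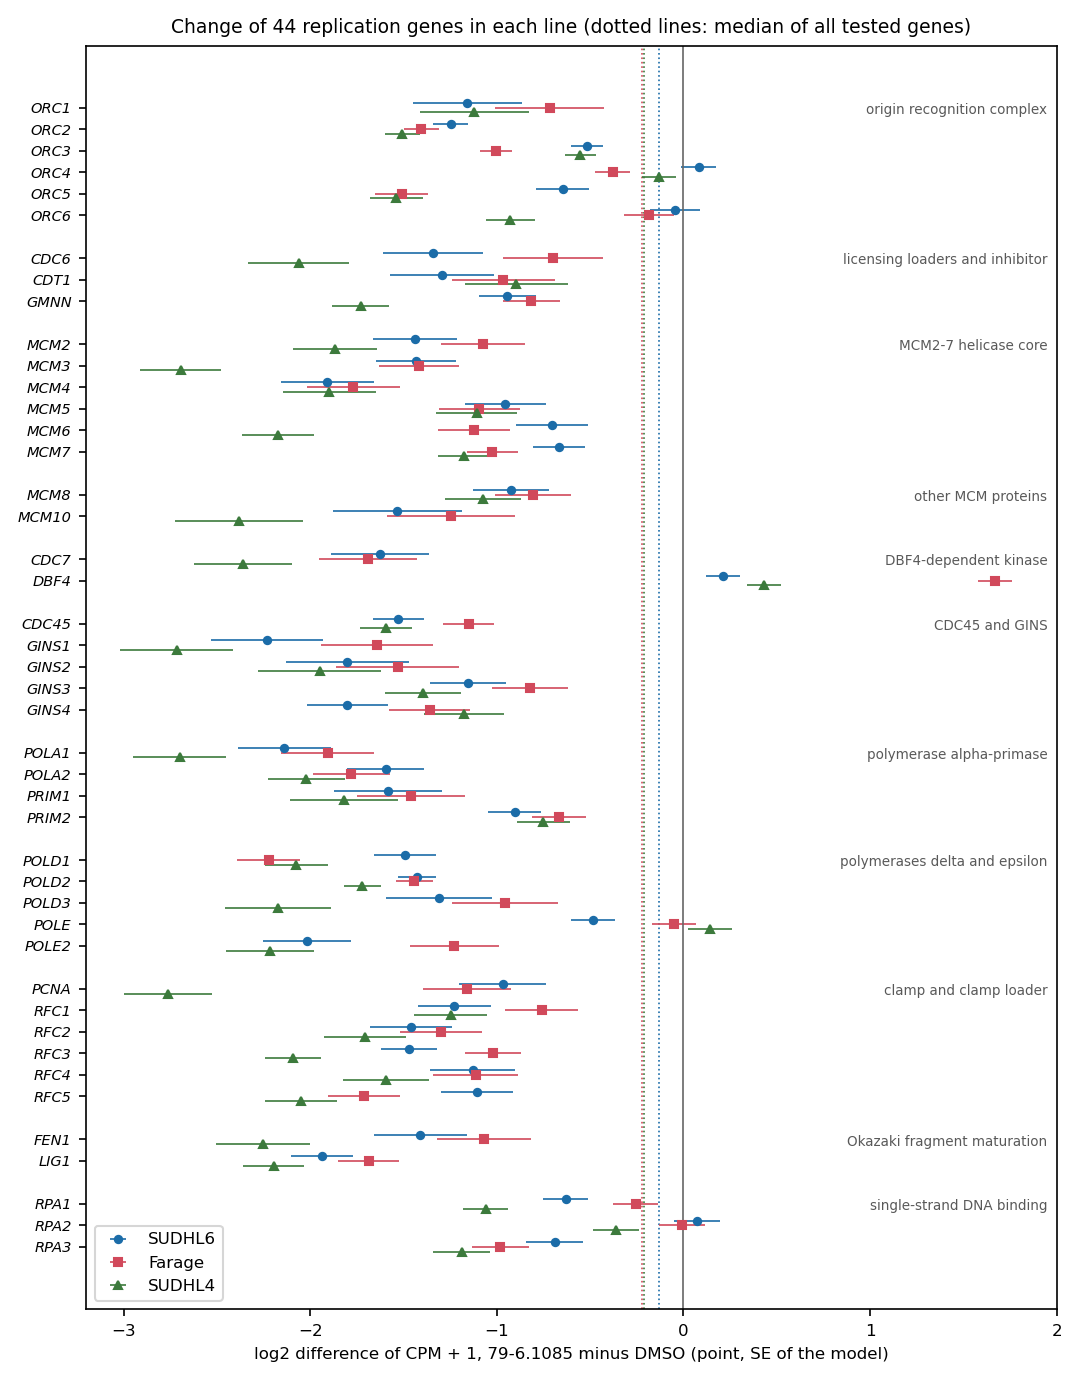
Log2 difference of CPM + 1 (79-6.1085 minus DMSO) of each of the 44 replication genes in SUDHL6, Farage and SUDHL4, ordered by role, with points to the left of 0 lower in treated libraries. Nearly all points lie left of 0, with DBF4 to the right in each line and POLE, RPA2 and ORC4 near 0.

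Of the origin recognition complex, whose 6 subunits mark origins, all 6 genes fell in the mean of the lines, but with unequal size. ORC2 had the largest mean difference (-1.39, SE 0.054, adjusted p = 1.22e-12). ORC2 in SUDHL6 measured 20.9, 27 and 22.2 CPM in treated and 53.6, 59.6 and 56.4 CPM in DMSO libraries. ORC2 in Farage measured 13.5, 14.1 and 15.2 CPM in treated and 39.8, 39.9 and 38.2 CPM in DMSO libraries. ORC2 in SUDHL4 measured 17.3, 15.7 and 18.8 CPM in treated and 51.3, 52.3 and 48.8 CPM in DMSO libraries. ORC2 had log2 differences of -1.25 in SUDHL6, -1.40 in Farage and -1.51 in SUDHL4 (SE 0.093 in each, largest adjusted p = 1.25e-08), and the treated values lay below the DMSO values without overlap in each line. ORC5 fell by 1.54 on the log2 scale in SUDHL4, by 1.51 in Farage and by 0.65 in SUDHL6. ORC1 and ORC3 had mean differences of -1.0 and -0.69. The call of ORC1 in Farage (-0.72, adjusted p = 0.0375) was lost with no filter, with median-of-ratios scaling (-0.48, adjusted p = 0.137), with edgeR and DESeq2, and in the 6 fits without 1 Farage library. ORC6 fell in SUDHL4 (-0.93) and did not pass the test in SUDHL6 (-0.05, adjusted p = 0.789) or Farage (-0.19, adjusted p = 0.223). ORC4 fell in Farage (-0.38), had differences of 0.08 in SUDHL6 (adjusted p = 0.456) and -0.13 in SUDHL4 (adjusted p = 0.225), and had a mean difference of -0.14 (adjusted p = 0.0209). With median-of-ratios scaling ORC4 was no longer called lower in Farage (-0.14, adjusted p = 0.14, and likewise with edgeR and DESeq2) or in the mean of the lines (0.09), and ORC6 missed the threshold in the mean of the lines (-0.15, adjusted p = 0.0502).

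The licensing factors CDC6, CDT1 and GMNN fell in every line. CDC6, the ATPase that completes the loading complex, had the largest mean difference (-1.37, SE 0.16, adjusted p = 3.82e-07). CDC6 in SUDHL6 measured 21.8, 27.1 and 63.4 CPM in treated and 64.7, 84.5 and 119 CPM in DMSO libraries. CDC6 in Farage measured 36.9, 37.9 and 40.6 CPM in treated and 61.6, 64.9 and 62.5 CPM in DMSO libraries. CDC6 in SUDHL4 measured 10.7, 11.3 and 10.0 CPM in treated and 50.6, 48.7 and 44 CPM in DMSO libraries. CDC6 had log2 differences of -1.34 in SUDHL6, -0.70 in Farage and -2.06 in SUDHL4 (SE 0.27 in each, largest adjusted p = 0.0287), and the groups did not overlap in any line. With median-of-ratios scaling the difference in Farage missed the threshold (-0.46, adjusted p = 0.139), as it did in 5 of the fits that left out 1 Farage library. GMNN, the inhibitor of CDT1, had mean levels of 10.3 ± 1.25 CPM in treated and 36.5 ± 1.40 CPM in DMSO SUDHL4 libraries (SD, n = 3 each), with log2 differences of -0.94 in SUDHL6, -0.82 in Farage and -1.73 in SUDHL4. CDT1 had a mean difference of -1.05, and after median-of-ratios scaling its difference in SUDHL4 missed the threshold (-0.61, adjusted p = 0.0517).

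All 6 subunits of the MCM2-7 helicase fell in each line, and 5 of the 6 fell by at least 2-fold in the mean of the lines, with MCM7 at -0.95. MCM4 had the largest mean difference (-1.86, SE 0.14, adjusted p = 3.13e-09). MCM4 in SUDHL6 measured 74.7, 119 and 214 CPM in treated and 362, 484 and 588 CPM in DMSO libraries. MCM4 in Farage measured 85.8, 85.9 and 89 CPM in treated and 290.3, 308 and 296 CPM in DMSO libraries. MCM4 in SUDHL4 measured 119, 127 and 113 CPM in treated and 464, 481 and 402 CPM in DMSO libraries. MCM4 had log2 differences of -1.91 in SUDHL6, -1.77 in Farage and -1.90 in SUDHL4 (SE 0.25 in each, largest adjusted p = 8.66e-06), and each treated library lay below each DMSO library of its line. MCM3 had mean levels of 34.6 ± 2.61 CPM in treated and 230.0 ± 22.4 CPM in DMSO SUDHL4 libraries (SD, n = 3 each), a log2 difference of -2.69, beside -1.43 in SUDHL6 and -1.42 in Farage. MCM2 and MCM5 had mean differences of -1.46 and -1.05.

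MCM6, whose promoter holds the overlapping E2F letters shown above, had one of the most unequal responses. MCM6 in SUDHL6 measured 78, 131 and 166 CPM in treated and 156, 199.8 and 239 CPM in DMSO libraries. MCM6 in Farage measured 98.1, 101 and 105 CPM in treated and 215, 227 and 221 CPM in DMSO libraries. MCM6 in SUDHL4 measured 48.4, 45.4 and 51 CPM in treated and 227, 234 and 203 CPM in DMSO libraries. Treated and DMSO values overlapped in SUDHL6 and were apart in Farage and SUDHL4. MCM6 had log2 differences of -0.71 in SUDHL6, -1.12 in Farage and -2.17 in SUDHL4 (SE 0.19 in each, largest adjusted p = 0.00399). With the 6 SUDHL6 libraries fitted alone, the difference in SUDHL6 missed the threshold (adjusted p = 0.0614).

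Of the other MCM proteins, MCM10, which acts in helicase activation and links it to polymerase alpha, fell in each line. MCM10 in SUDHL6 measured 8.39, 24.1 and 38.5 CPM in treated and 43.3, 61.8 and 79.9 CPM in DMSO libraries. MCM10 in Farage measured 16.6, 17.9 and 19.4 CPM in treated and 45.1, 43.3 and 43.5 CPM in DMSO libraries. MCM10 in SUDHL4 measured 5.72, 4.34 and 5.42 CPM in treated and 30.6, 34.2 and 28.3 CPM in DMSO libraries. The groups were apart in every line, and the 3 treated SUDHL6 libraries spread more widely than those of the other lines. MCM10 had log2 differences of -1.53 in SUDHL6, -1.25 in Farage and -2.38 in SUDHL4 (SE 0.34 in each, largest adjusted p = 0.0039). MCM8, a paralogue known for a role in homologous recombination, had differences of -0.92 in SUDHL6, -0.80 in Farage and -1.07 in SUDHL4.

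The 2 subunits of the DBF4-dependent kinase moved in opposite directions. CDC7, the catalytic subunit, fell in each line. CDC7 in SUDHL6 measured 8.30, 21.6 and 26.8 CPM in treated and 49.2, 56.2 and 59.1 CPM in DMSO libraries. CDC7 in Farage measured 8.47, 9.57 and 8.55 CPM in treated and 31.3, 29.9 and 31.3 CPM in DMSO libraries. CDC7 in SUDHL4 measured 5.09, 4.56 and 6.11 CPM in treated and 33.5, 30.9 and 28.6 CPM in DMSO libraries. CDC7 had log2 differences of -1.63 in SUDHL6, -1.69 in Farage and -2.36 in SUDHL4 (SE 0.26 in each, largest adjusted p = 3.95e-05), with no overlap between groups.

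DBF4, the activating subunit, rose. DBF4 in SUDHL6 measured 74.8, 71.1 and 79.2 CPM in treated and 61.1, 60.0 and 73.5 CPM in DMSO libraries. DBF4 in Farage measured 139, 143 and 132 CPM in treated and 41.2, 43.3 and 43.8 CPM in DMSO libraries. DBF4 in SUDHL4 measured 72.2, 76.3 and 63.7 CPM in treated and 52.9, 47 and 56.4 CPM in DMSO libraries. In Farage the lowest treated value was more than 3 times the highest DMSO value, in SUDHL4 the groups were apart, and in SUDHL6 they overlapped. DBF4 had log2 differences of 0.21 in SUDHL6, 1.67 in Farage and 0.43 in SUDHL4 (SE 0.091 in each, largest adjusted p = 0.048). In SUDHL6 the block on replicate number, which pairs the libraries of that line, left the difference of 0.21 at an adjusted p of 0.0548, and the call was also lost in 12 of the 18 fits without 1 library. On the recovered reads edgeR gave 0.41 for this difference (adjusted p = 0.00298), and it stayed a rise. Exons of DBF4 overlap those of SLC25A40, a mitochondrial carrier gene on the opposite strand, and without a stated strand setting reads of the 2 genes cannot be told apart there. SLC25A40 measured 35.0 ± 1.07 CPM in treated and 43.4 ± 0.0488 CPM in DMSO Farage libraries (log2 difference -0.30, adjusted p = 0.142), where DBF4 rose most. It fell in SUDHL6 (-0.59, adjusted p = 0.00822) and had a difference of 0.28 in SUDHL4 (adjusted p = 0.174), the same sign as that of DBF4. DBF4 also has an annotated pseudogene, so reads shared with it are uncertain.

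**Figure D2:**
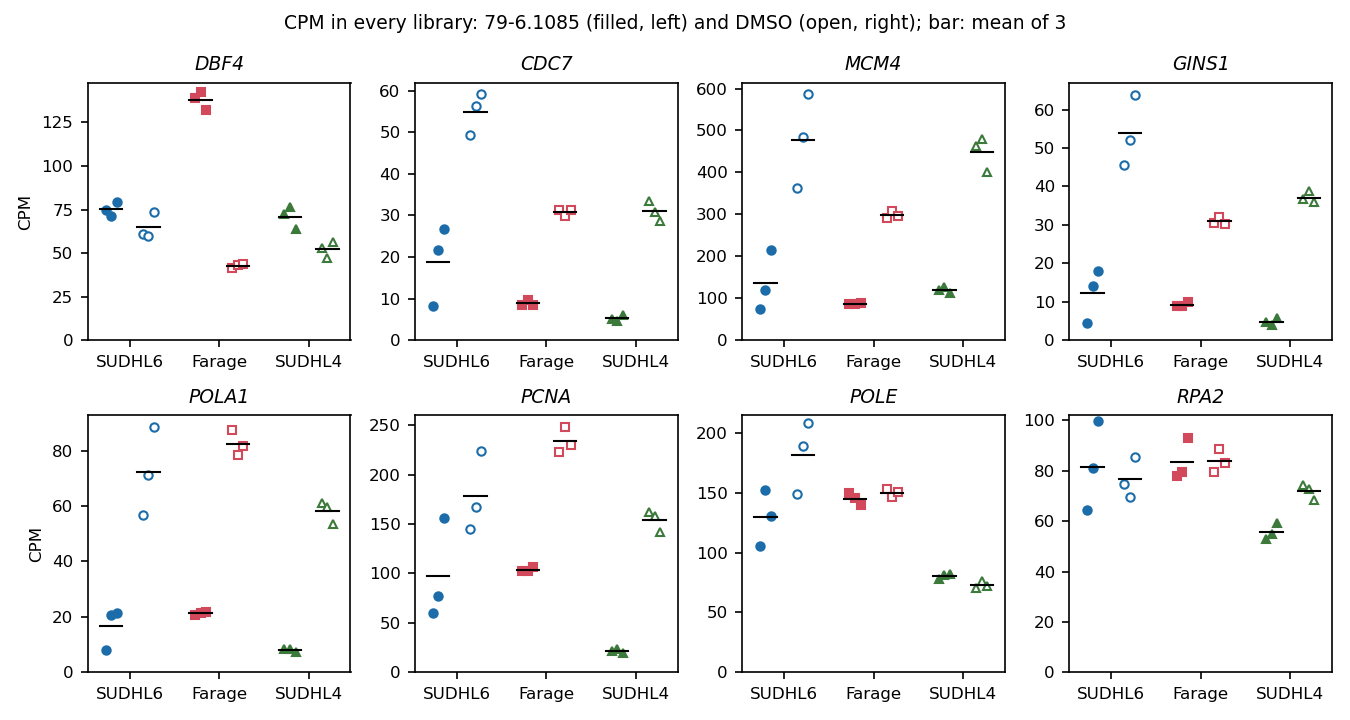
CPM of DBF4, CDC7, MCM4, GINS1, POLA1, PCNA, POLE and RPA2 in each of the 18 libraries, with 79-6.1085 libraries as filled points left of the open DMSO points and a bar at the mean of 3. CDC7, MCM4, GINS1 and POLA1 are lower in every treated library than in every DMSO library of the same line, DBF4 is higher in treated Farage libraries (132 to 143 CPM, against 41.2 to 43.8 CPM), and POLE and RPA2 overlap in SUDHL6 and Farage.

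All 5 genes of CDC45 and GINS, which complete the active helicase, fell in each line. GINS1 had the largest mean difference (-2.20, SE 0.17, adjusted p = 3.99e-09). GINS1 in SUDHL6 measured 4.43, 14.2 and 17.9 CPM in treated and 45.6, 52.1 and 63.9 CPM in DMSO libraries. GINS1 in Farage measured 8.89, 8.96 and 9.89 CPM in treated and 30.6, 32 and 30.2 CPM in DMSO libraries. GINS1 in SUDHL4 measured 4.68, 4.06 and 5.79 CPM in treated and 36.7, 38.7 and 36 CPM in DMSO libraries. GINS1 had log2 differences of -2.23 in SUDHL6, -1.64 in Farage and -2.72 in SUDHL4 (SE 0.30 in each, largest adjusted p = 0.000126), and the groups were apart in every line. CDC45 and GINS2 had mean differences of -1.42 and -1.76.

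GINS3 had the largest DMSO difference between Farage and SUDHL4, and GINS4 that between SUDHL6 and SUDHL4, and both are given in full. GINS3 in SUDHL6 measured 11.7, 21.2 and 25.7 CPM in treated and 35.7, 38.6 and 56.1 CPM in DMSO libraries. GINS3 in Farage measured 28.9, 29.2 and 31.7 CPM in treated and 53, 57.1 and 51.2 CPM in DMSO libraries. GINS3 in SUDHL4 measured 7.78, 8.33 and 8.19 CPM in treated and 22.5, 25.1 and 21.4 CPM in DMSO libraries. Each treated library of GINS3 lay below each DMSO library of its line, with log2 differences of -1.16 in SUDHL6, -0.82 in Farage and -1.40 in SUDHL4 (SE 0.20 in each, largest adjusted p = 0.00179). GINS4 in SUDHL6 measured 13.5, 21.7 and 35.5 CPM in treated and 68.6, 75 and 95.1 CPM in DMSO libraries. GINS4 in Farage measured 14.6, 14.5 and 15.3 CPM in treated and 39.1, 41.7 and 37.6 CPM in DMSO libraries. GINS4 in SUDHL4 measured 8.52, 8.65 and 8.15 CPM in treated and 19.9, 21.6 and 19.6 CPM in DMSO libraries. For GINS4, too, the groups were apart in every line, with log2 differences of -1.80 in SUDHL6, -1.36 in Farage and -1.18 in SUDHL4 (SE 0.22 in each, largest adjusted p = 0.000124).

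The polymerase alpha-primase genes, which supply RNA-DNA primers, all fell in each line. POLA1, the catalytic subunit of polymerase alpha, had the largest mean difference of the 44 genes. POLA1 in SUDHL6 measured 7.92, 20.8 and 21.5 CPM in treated and 56.7, 71.3 and 88.7 CPM in DMSO libraries. POLA1 in Farage measured 20.6, 21.4 and 21.8 CPM in treated and 87.4, 78.4 and 81.7 CPM in DMSO libraries. POLA1 in SUDHL4 measured 8.41, 8.58 and 7.31 CPM in treated and 61.1, 59.7 and 53.4 CPM in DMSO libraries. POLA1 had log2 differences of -2.14 in SUDHL6, -1.91 in Farage and -2.70 in SUDHL4 (SE 0.25 in each, largest adjusted p = 3.74e-06), and the lowest DMSO value exceeded the highest treated value in every line. POLA2 and the catalytic primase subunit PRIM1 had mean differences of -1.80 and -1.62, and PRIM2, the large primase subunit, had -0.77.

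Of the 5 genes of polymerases delta and epsilon, 4 fell in each line. On log2(CPM + 1), POLD1, the catalytic subunit of polymerase delta, had the largest mean difference (-1.93, SE 0.097, adjusted p = 1.63e-11). POLD1 in SUDHL6 measured 34.7, 48.5 and 51.9 CPM in treated and 96.6, 146 and 144 CPM in DMSO libraries. POLD1 in Farage measured 13.3, 11.5 and 13.4 CPM in treated and 67.7, 64.8 and 56.6 CPM in DMSO libraries. POLD1 in SUDHL4 measured 11, 12.9 and 10.7 CPM in treated and 57.2, 55.4 and 43.3 CPM in DMSO libraries. POLD1 had log2 differences of -1.49 in SUDHL6, -2.22 in Farage and -2.07 in SUDHL4 (SE 0.17 in each, largest adjusted p = 8.42e-07), without overlap between groups. POLD2, POLD3 and POLE2 had mean differences of -1.53, -1.48 and -1.82. Adding 1 to the CPM weighs more on POLE2, which had low levels. Its mean CPM was 78.5% lower in treated SUDHL6, 61.1% in Farage and 86.9% in SUDHL4, beside 65.0, 79.8 and 77.8% for POLD1.

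POLE, the catalytic subunit of polymerase epsilon, did not pass the test in the mean of the lines (-0.13, adjusted p = 0.081). POLE in SUDHL6 measured 106, 152 and 131 CPM in treated and 149, 188 and 208 CPM in DMSO libraries. POLE in Farage measured 149.5, 145 and 140.1 CPM in treated and 153, 146 and 150.4 CPM in DMSO libraries. POLE in SUDHL4 measured 78.1, 81.2 and 82.4 CPM in treated and 70.4, 76.5 and 72.2 CPM in DMSO libraries. It fell in SUDHL6 (-0.49, adjusted p = 0.00151), where the groups overlapped by 1 treated library. The differences in Farage (-0.05, adjusted p = 0.729) and SUDHL4 (0.14, adjusted p = 0.298) did not pass, although each treated SUDHL4 value exceeded each DMSO value. With median-of-ratios scaling POLE was called higher in SUDHL4 (0.44, adjusted p = 0.00232) and its mean difference became 0.11. The replicate block called POLE lower in the mean of the lines (-0.13, adjusted p = 0.0107), as did the fits without SUDHL6 DMSO library 1 (-0.18, adjusted p = 0.0117) and without treated SUDHL6 library 2 (-0.17, adjusted p = 0.0152). POLE2, the second subunit of the same polymerase, had log2 differences of -2.02 in SUDHL6, -1.23 in Farage and -2.21 in SUDHL4.

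PCNA, the sliding clamp, and the 5 genes of its loader RFC fell in each line. PCNA in SUDHL6 measured 59.6, 76.9 and 156 CPM in treated and 145, 168 and 223 CPM in DMSO libraries. PCNA in Farage measured 102, 103 and 106 CPM in treated and 222, 248 and 229.7 CPM in DMSO libraries. PCNA in SUDHL4 measured 21.9, 23.7 and 19.9 CPM in treated and 162, 158 and 142 CPM in DMSO libraries. In SUDHL6 the highest treated library lay within the DMSO range, and in Farage and SUDHL4 the groups were apart. PCNA had log2 differences of -0.97 in SUDHL6, -1.16 in Farage and -2.76 in SUDHL4 (SE 0.23 in each, largest adjusted p = 0.00158). On log2(CPM + 1) RFC3 had the largest fall of the loader subunits in SUDHL4, while in mean CPM RFC5 was 78.1% lower and RFC3 77.2%. RFC3 in SUDHL6 measured 40.5, 69.6 and 63.8 CPM in treated and 165, 173 and 138 CPM in DMSO libraries. RFC3 in Farage measured 25.3, 24.2 and 25.4 CPM in treated and 53.6, 50.9 and 50.2 CPM in DMSO libraries. RFC3 in SUDHL4 measured 26.1, 22.6 and 28.7 CPM in treated and 119, 115 and 105 CPM in DMSO libraries. RFC3 had log2 differences of -1.47 in SUDHL6, -1.02 in Farage and -2.09 in SUDHL4 (SE 0.15 in each, largest adjusted p = 1.29e-05), with no overlap in any line. The mean differences of the other loader genes were -1.08 for RFC1, the large subunit, -1.49 for RFC2, -1.28 for RFC4 and -1.62 for RFC5. PCNA, RFC3 and RFC5 have annotated pseudogenes, and exons of RFC4 overlap EIF4A2 on the opposite strand.

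LIG1, the ligase that seals Okazaki fragments, and FEN1, the flap nuclease, both fell in each line. LIG1 in SUDHL6 measured 25, 39.6 and 45.2 CPM in treated and 119, 139 and 162 CPM in DMSO libraries. LIG1 in Farage measured 21.4, 21.5 and 19.9 CPM in treated and 72.7, 70.9 and 65.3 CPM in DMSO libraries. LIG1 in SUDHL4 measured 9.48, 10.2 and 10.1 CPM in treated and 51, 55.6 and 41.6 CPM in DMSO libraries. LIG1 had log2 differences of -1.94 in SUDHL6, -1.69 in Farage and -2.20 in SUDHL4 (SE 0.17 in each, largest adjusted p = 1.45e-07), and the groups were apart in every line. FEN1 had differences of -1.41 in SUDHL6, -1.07 in Farage and -2.25 in SUDHL4. Exons of FEN1 overlap TMEM258 on the opposite strand and FADS2 on its own.

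The 3 genes of replication protein A, which coats single-stranded DNA, changed unequally. RPA3, the small subunit, fell in each line. RPA3 in SUDHL6 measured 19.9, 26 and 32.2 CPM in treated and 38.1, 35.8 and 53.6 CPM in DMSO libraries. RPA3 in Farage measured 12.2, 11.8 and 13.2 CPM in treated and 22.9, 28.5 and 25.4 CPM in DMSO libraries. RPA3 in SUDHL4 measured 15, 14.7 and 14.6 CPM in treated and 35.7, 35.1 and 34.1 CPM in DMSO libraries. RPA3 had log2 differences of -0.69 in SUDHL6, -0.98 in Farage and -1.19 in SUDHL4 (SE 0.15 in each, largest adjusted p = 0.000801), and the groups did not overlap. RPA1, the large subunit, fell in SUDHL6 (-0.63) and SUDHL4 (-1.06) and had a difference of -0.26 in Farage (adjusted p = 0.0679). RPA2, the middle subunit, did not pass the test in the mean of the lines (-0.10, adjusted p = 0.201). RPA2 in SUDHL6 measured 64.2, 81 and 99.7 CPM in treated and 74.9, 69.6 and 85.6 CPM in DMSO libraries. RPA2 in Farage measured 77.9, 79.4 and 92.8 CPM in treated and 79.6, 88.5 and 83.1 CPM in DMSO libraries. RPA2 in SUDHL4 measured 53, 54.9 and 59.1 CPM in treated and 74.2, 72.9 and 68.3 CPM in DMSO libraries. It fell in SUDHL4 (-0.36, adjusted p = 0.0152) and overlapped between groups in SUDHL6 and Farage. After median-of-ratios scaling the SUDHL4 difference was -0.06 (adjusted p = 0.637), and edgeR on the recovered reads called RPA2 higher in the mean of the lines (0.15, adjusted p = 0.0294). RPA2 has annotated pseudogenes, and exons of RPA3 overlap UMAD1 on the opposite strand.

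Compared by role, the median log2 difference in the mean of the lines was -1.76 for Okazaki fragment maturation, -1.71 for polymerase alpha-primase, -1.53 for polymerases delta and epsilon, -1.51 for the clamp and its loader, -1.45 for CDC45 and GINS and -1.40 for the MCM2-7 core. It was -1.33 for the other MCM proteins, -1.16 for the licensing loaders and inhibitor, -0.84 for the origin recognition complex, -0.65 for the RPA genes and -0.56 for the kinase pair, whose members moved oppositely. All 11 medians lay below the -0.24 of all tested genes. By line, the origin recognition complex had medians of -0.58 in SUDHL6, -0.86 in Farage and -1.02 in SUDHL4, while polymerase alpha-primase had -1.59, -1.62 and -1.92 and CDC45 and GINS had -1.80, -1.36 and -1.59. In the role groups with 4 or more genes the ranges of the members overlapped, and the medians are a description with no test between groups.

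**Figure D3:**
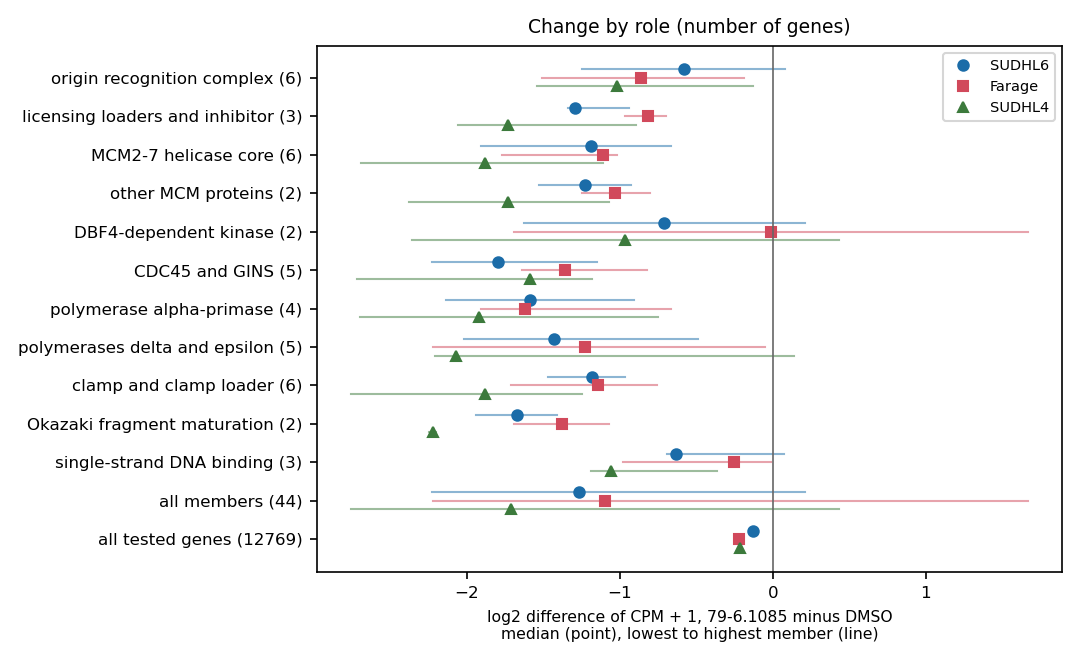
Median (point) and lowest to highest member (line) of the log2 difference of CPM + 1 (79-6.1085 minus DMSO) for each role group in SUDHL6, Farage and SUDHL4, with all 44 genes below and, as points alone, the medians of all 12769 tested genes. The medians of the polymerase, clamp, MCM and Okazaki groups lie left of -1 in each line, those of the RPA genes and the origin recognition complex lie right of -1 in SUDHL6 and Farage and just left of it in SUDHL4, and all members except DBF4, ORC4, RPA2 and POLE stay left of 0.

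Replication genes outside the 44 were also lower in treated cells. Of 37 other genes of DNA replication, all tested, 31 fell in the mean of the lines (53.8% of all tested genes), 1 rose (30.1%) and 5 did not pass the test, with a median log2 difference of -1.0, and 19 fell by at least 2-fold (16%). With median-of-ratios scaling 5 rose (39.4% of all tested genes on that scale). By line, 31 fell (41.3%) and 3 rose (26.8%) in SUDHL6, 29 fell (46.5%) and 4 rose (25.4%) in Farage, and 30 fell (46.2%) and 1 rose (24.3%) in SUDHL4. The smallest p-values belonged to RNASEH2C (-0.92, adjusted p = 1.97e-11), POLD4 (-1.32, adjusted p = 1.61e-10), CHTF18 (-1.63, adjusted p = 1.70e-10) and RNASEH2A (-2.03, adjusted p = 2.20e-10). These encode a subunit of ribonuclease H2, the small subunit of polymerase delta, a subunit of an alternative clamp loader and the catalytic subunit of ribonuclease H2. MCM9, the partner of MCM8, rose (0.59, adjusted p = 1.28e-08). The 5 that did not pass were DBF4B (-0.14), a second activator of CDC7, TOPBP1 (0.03), CHTF8 (-0.07), TOP1 (0.10) and ASF1A (-0.05).

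The size of the response differed among the lines for some of the genes. An F-test over the 3 within-line differences called 18 of 44 genes (40.9%), a smaller share than the 55.9% of all tested genes. The order of these shares was reversed in some of the other fits given below, so it is not read as particular to these genes. The lowest log2 difference was in SUDHL4 for 34 genes, in SUDHL6 for 7 and in Farage for 3. Those of SUDHL6 include DBF4, which rose least there. No share over all tested genes is given for this order, so it is not read as particular to these genes. Between pairs of lines, the log2 difference was lower in SUDHL4 than in Farage for 12 genes, among them DBF4 with its smaller rise in SUDHL4, and higher for 1. Together these were 29.5% of the 44, against 37.4% of all tested genes. It was lower in SUDHL6 than in Farage for 2 genes, POLE and again DBF4, and higher for 4 (13.6% against 36.8%). It was lower in SUDHL6 than in SUDHL4 for 1 and higher for 8 (20.5% against 35%). In the same order of pairs, 2515 of all tested genes were lower and 2260 higher, 1929 lower and 2767 higher, and 1599 lower and 2875 higher. The median difference of responses over the 44 genes was -0.43 for SUDHL4 minus Farage, -0.15 for SUDHL6 minus Farage and 0.43 for SUDHL6 minus SUDHL4, beside -0.01, 0.06 and 0.08 over all tested genes. With the block on replicate number the F-test called 29 of 44 genes, a larger share than the 63.4% of all tested genes in that fit. The pairs had 21 for SUDHL4 and Farage (43.6%), 13 for SUDHL6 and Farage (43%) and 20 for SUDHL6 and SUDHL4 (42.1%).

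DBF4, PCNA, MCM6 and RFC3 had the smallest F-test p-values. The response of DBF4 in SUDHL4 differed from that in Farage by -1.23 (adjusted p = 1.66e-06), and that in SUDHL6 differed from that in Farage by -1.46 (adjusted p = 3.71e-07). Its responses in SUDHL6 and SUDHL4 differed by -0.22 (adjusted p = 0.197). The rise of DBF4 was larger in Farage than in either of the other lines. For PCNA the response in SUDHL4 minus that in Farage was -1.60 (adjusted p = 0.0012), in SUDHL6 minus SUDHL4 1.79 (adjusted p = 0.000619) and in SUDHL6 minus Farage 0.19 (adjusted p = 0.69). MCM6 differed by -1.05 (adjusted p = 0.00622) for SUDHL4 minus Farage and 1.47 (adjusted p = 0.000653) for SUDHL6 minus SUDHL4, and RFC3 by -1.07 (adjusted p = 0.000808) and 0.62 (adjusted p = 0.0307). These 3 genes fell furthest in SUDHL4. ORC3 went the other way, with a smaller fall in SUDHL4 (-0.55) than in Farage (-1.0).

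The SUDHL6 libraries were the most spread. Summed over the 44 genes, levels were 1847, 2818 and 3605 CPM in treated libraries 1 to 3 and 4815, 5787 and 6600 CPM in DMSO libraries 1 to 3 of SUDHL6. The sums in Farage were 2073, 2069 and 2208 CPM in treated and 4030, 4219 and 4008 CPM in DMSO libraries. SUDHL4 had 1288, 1321 and 1321 CPM in treated and 3851, 3916 and 3441 CPM in DMSO libraries. Every treated sum lay below every DMSO sum of its line. In SUDHL6, treated library 1 was the lowest of its group for 43 of 44 genes and treated library 3 the highest for 37, and DMSO library 1 was the lowest for 36 and DMSO library 3 the highest for 36. Between libraries of the same number, the median log2 difference in SUDHL6 was -1.56, -1.20 and -0.95 for numbers 1, 2 and 3, with 43, 41 and 40 genes lower. Over all tested genes these medians were -0.223, -0.0687 and -0.0852. No share over all tested genes is given for the counts by library, so they are not read as particular to these genes. The third pair was also the shallowest. Without treated SUDHL6 library 1 the F-test called 32 of 44 genes, a larger share than the 63.1% of all tested genes in that fit. The SUDHL4 and Farage responses then differed for 24 (44.3%), the SUDHL6 and Farage responses for 10 (40.7%) and the SUDHL6 and SUDHL4 responses for 29 (41%). Without treated SUDHL6 library 3 the SUDHL6 and Farage responses differed for 13 (41.7%).

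**Figure D4:**
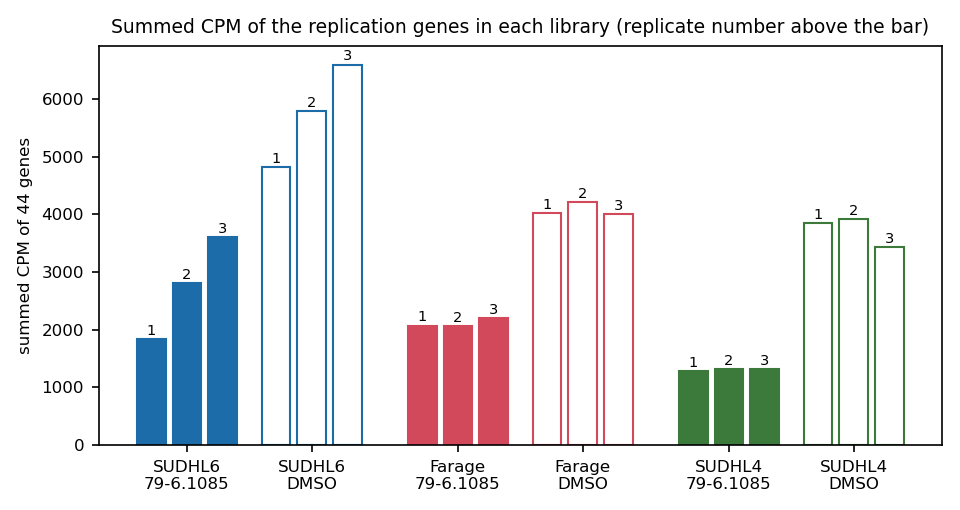
Summed CPM of the 44 replication genes in each of the 18 libraries, with 79-6.1085 libraries left of DMSO libraries in each line. Treated sums range over 1847 to 3605 CPM in SUDHL6, 2069 to 2208 CPM in Farage and 1288 to 1321 CPM in SUDHL4, and each lies below the DMSO sums of its line.

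The lines also differed in DMSO alone. SUDHL6 exceeded SUDHL4 for 26 genes and was lower for 2 (63.6% of the 44, against 68.6% of tested genes). Farage was lower than SUDHL6 for 21 and higher for 1 (50% against 71.3%). Farage was higher than SUDHL4 for 18 and lower for 9 (61.4% against 67.1%). The count of this last pair was 17 in all without Farage DMSO library 2 (62.3% of tested genes) and 16 without SUDHL4 DMSO library 3 (63.4%). With all libraries the share of the 44 genes was below that of all tested genes for each pair, but near it for the first and last. Over the fits without 1 library the count of this last pair ran over 16 to 34 (61.3 to 71.5% of tested genes). The order of the shares thus depended on the fit. In the same order of pairs, 4914 of all tested genes were higher and 3849 lower, 4787 lower and 4311 higher, and 4596 higher and 3969 lower. The median log2 difference of the 44 genes was 0.52 for SUDHL6 minus SUDHL4, -0.47 for Farage minus SUDHL6 and 0.31 for Farage minus SUDHL4, beside 0.08, -0.05 and 0.04 over all tested genes. Line and everything that differs between the lines or their cultures cannot be told apart.

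The largest DMSO difference between SUDHL6 and SUDHL4 was that of GINS4, with means of 79.5 ± 13.8 CPM in SUDHL6 and 20.4 ± 1.09 CPM in SUDHL4 (log2 difference 1.90, SE 0.22, adjusted p = 7.73e-07), and Farage lay between them at 39.5 ± 2.05 CPM (SD, n = 3 each). RFC3 differed most between Farage and SUDHL6, with 51.6 ± 1.82 CPM in Farage and 159 ± 18.1 CPM in SUDHL6 (-1.60, SE 0.15, adjusted p = 5.78e-08). SUDHL4 lay between at 113 ± 6.82 CPM. GINS3 differed most between Farage and SUDHL4, with 53.7 ± 3.02 CPM in Farage and 23 ± 1.87 CPM in SUDHL4 (1.19, SE 0.20, adjusted p = 7.05e-05). For each of these pairs the libraries of the lines did not overlap. CDT1 measured 77.1 ± 24.6 CPM in SUDHL6, 28.8 ± 2.89 CPM in Farage and 22.7 ± 3.32 CPM in SUDHL4 DMSO libraries, and its order placed SUDHL6 above both other lines. POLE was higher in DMSO Farage than in DMSO SUDHL4 (1.03, adjusted p = 6.94e-07) and higher in DMSO SUDHL6 than in DMSO SUDHL4 (1.29, adjusted p = 5.25e-08).

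**Figure D5:**
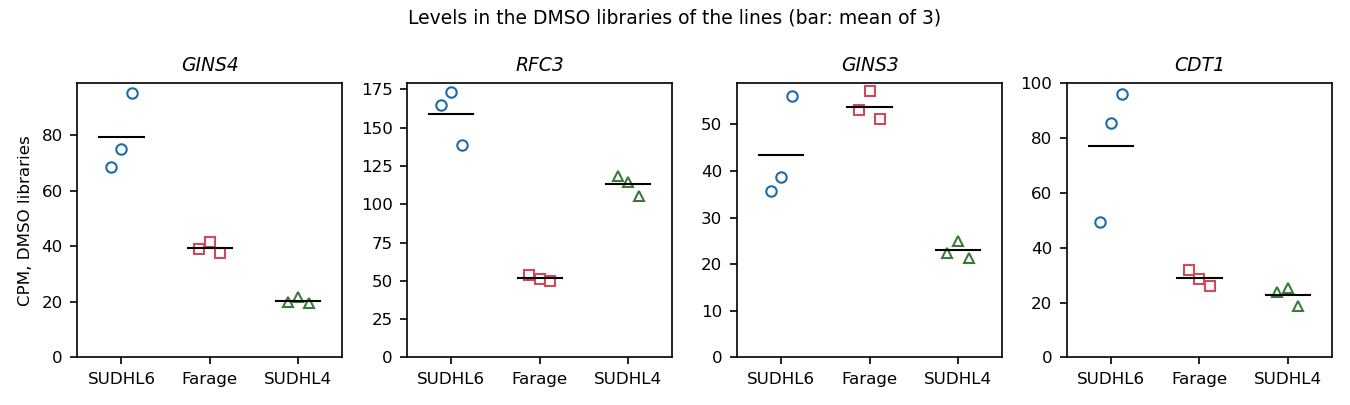
CPM of GINS4, RFC3, GINS3 and CDT1 in the 3 DMSO libraries of each line, with a bar at the mean of 3. GINS4 and CDT1 are highest in SUDHL6, RFC3 is lowest in Farage and GINS3 is lowest in SUDHL4.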

How the data were processed

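Per the labels' protocols, a TruSeq RNA kit was used for the libraries, and STAR and hg19 are named in the submitters' processing notes. Rsubread is named in a label, with versions, strand setting and filters not given in the sources used here. The deposited values are CPM (read counts scaled to a common library total) per RefSeq gene symbol, made by the authors, 1 file per library. Whole reads were recovered from the CPM steps (100% of values whole within 0.01 reads), and listed genes sum to 74.63 to 80.72% of the authors' divisor. Those reads served for depth and for edgeR and DESeq2 as alternatives. On them edgeR called 5123 genes lower and 4996 higher in the mean of the lines.

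The 18 libraries were grouped by line and treatment, from the labels. Genes that reached 1 CPM in 3 or more libraries were tested (12769 genes), with limma (3.58.1, R 4.3.3) with a trend on log2(CPM + 1), 6 group means, two-sided, Benjamini-Hochberg adjustment over all tested genes and a threshold of 0.05. All adjusted p-values are from this fit unless another tool is named. The 6 groups share 1 estimate of the spread per gene, so the SE is the same in each line. The wider spread of SUDHL6 enters it: the SD of treated MCM4 was 71.4 CPM in SUDHL6 and 1.83 CPM in Farage. A gene can thus miss the threshold in Farage although its groups do not overlap, as did ORC6 and RPA1. Replicate numbers are not part of this fit. Fold changes on log2(CPM + 1) understate changes of low genes. The limma fit, tested on simulated counts in the mean of the lines, recovered most of the changes put in. That simulation held as many rises as falls and no shift between replicate numbers. The other fits and contrasts were not tested in this way. The replication genes, their role groups and the other lists were chosen with earlier results of these data known. Values in every library are given for the gene with the largest change of each role group, genes not called or called higher in the mean of the lines, the 4 smallest F-test p-values, and the largest DMSO difference of each pair of lines.

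Alternatives were a pseudocount of 0.25, no filter, a mean CPM of at least 5, median-of-ratios scaling, a replicate block, only the compared lines, leaving out each library or the third SUDHL6 libraries, edgeR 4.0.16 and DESeq2 1.42.0. Replicate numbers come from the sample titles. Deviations of same-numbered treated and DMSO libraries from their group means correlated across genes at 0.425, 0.488 and 0.632 in SUDHL6, so the numbers were taken to pair there, and at 0.168, -0.128 and -0.189 in Farage and -0.054, 0.034 and -0.073 in SUDHL4, where they were not. No 2 libraries of a group agreed within sampling noise. Of the marker genes, 1 is not reported here. Gene overlaps are from GENCODE v29 and promoters from RefSeq (GRCh38.p14), and their coordinates were not joined to hg19.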

Additional observations from a re-analysis of the deposited data

Results flagged for a closer look

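The response to the inhibitor differed among SUDHL6, Farage and SUDHL4 by the F-test for 18 of the 44 replication genes, each given here with its adjusted p. The smallest p-values were those of DBF4 (3.30e-07), PCNA (0.000458), MCM6 (0.000836) and RFC3 (0.00166), described above. Of the origin recognition complex, ORC6 (0.00179) had log2 differences of -0.05, -0.19 and -0.93 in SUDHL6, Farage and SUDHL4, ORC5 (0.00182) had -0.65, -1.51 and -1.54, ORC3 (0.00413) had -0.52, -1.0 and -0.55, and ORC4 (0.0211) had 0.08, -0.38 and -0.13. In the same order of lines, the licensing genes GMNN (0.00386) and CDC6 (0.0195) had -0.94, -0.82 and -1.73, and -1.34, -0.70 and -2.06. MCM3 (0.00259) had -1.43, -1.42 and -2.69. The polymerase genes POLE (0.0118), POLD1 (0.0326), POLE2 (0.0415) and POLD3 (0.0421) had -0.49, -0.05 and 0.14, -1.49, -2.22 and -2.07, -2.02, -1.23 and -2.21, and -1.31, -0.96 and -2.17. RFC5 (0.0221) had -1.11, -1.71 and -2.05, FEN1 (0.0246) had -1.41, -1.07 and -2.25, and RPA1 (0.00311) had -0.63, -0.26 and -1.06. Of these 18 genes, GMNN, CDC6, MCM3, MCM6, PCNA, RFC3, RFC5, FEN1, RPA1, ORC5, ORC6, POLE2 and POLD3 had their most negative value in SUDHL4. The same test passed for 55.9% of all tested genes, a larger share than the 40.9% of the 44. Without treated SUDHL6 library 1 it called 32 of the 44, a larger share than the 63.1% of all tested genes, so the order of the shares depended on the fit.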

How the results depend on the processing

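Over the differences of the 44 genes in each line and in the mean of the lines there were 4708 alternative values. Of these, 4616 kept direction and side of the threshold, 45 lost a call, 17 gained one and 30 changed sign. Role medians and counts of genes are not among them. Without each library in turn, 40 genes were lower in SUDHL6 (38.8 to 42.5% of all tested genes in those fits). In Farage 37 to 40 were lower (43.2 to 48.4%), and in SUDHL4 40 to 41 (43.1 to 47.9%). The mean of the lines had 41 to 42 lower genes (52.5 to 54.6%), and 29 to 36 lower by at least 2-fold (15 to 17%). The mean difference of ORC4 was 0.090 with median-of-ratios scaling, 0.10 with edgeR and 0.10 with DESeq2, that of POLE 0.11, 0.12 and 0.11, and that of RPA2 0.14, 0.15 and 0.15, where edgeR and DESeq2 called RPA2 higher. In the same order, ORC6 in SUDHL6 was 0.13, 0.16 and 0.14, ORC6 in Farage 0.048, 0.048 and 0.062, POLE in Farage 0.19, 0.19 and 0.21, RPA2 in Farage 0.23, 0.23 and 0.25, and ORC4 in SUDHL4 0.16, 0.18 and 0.17. Genes called higher numbered 2, 3 and 3 in SUDHL6 (33.1, 34.4 and 34% of all tested genes) and 2, 2 and 2 in SUDHL4 (34.3, 35.9 and 35.7%). In the mean of the lines they numbered 2 with both count tools (39.1 and 39.4%), and 1, 1 and 1 by at least 2-fold (9.47, 13.8 and 14%). Of the other replication genes 5, 5 and 5 were called higher there (39.4, 39.1 and 39.4%). Role medians, in that order, were -0.61, -0.61 and -0.61 for the origin recognition complex, -0.33, -0.35 and -0.35 for the kinase pair, -1.29, -1.29 and -1.30 for polymerases delta and epsilon, and -0.41, -0.40 and -0.40 for the RPA genes. With scaling alone the clamp and loader moved to -1.27 and Okazaki maturation to -1.52. The differences and role medians listed here all lay higher than in the main fit. These 3 alternatives rescale the libraries, and edgeR and DESeq2 also model counts rather than log2(CPM + 1). The cause was not tested further.

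Genes called higher in SUDHL6 (DBF4) numbered 0 with no filter (20% of all tested genes), with the replicate block (28.2%) and with only the compared lines (22.2%). The replicate block, which pairs the libraries in SUDHL6 but was run in all lines, gave 29 genes by the F-test (63.4% of all tested genes). Its response differences numbered 21 for SUDHL4 and Farage (43.6%), 13 for SUDHL6 and Farage (43%) and 20 for SUDHL6 and SUDHL4 (42.1%). In SUDHL6 it changed no other call than that of DBF4, and it added those of POLE in the mean of the lines and RPA1 in Farage (adjusted p = 0.0228). SUDHL4 and Farage responses differed for 30 genes with only those lines fitted (58.2% of all tested genes in that fit). Without the third SUDHL6 libraries they differed for 22 (46.9%), and SUDHL6 and Farage responses for 11 (41.6%). That fit moved RPA2 in SUDHL6 to -0.00093. DESeq2 gave 10 for SUDHL6 and Farage (33.3%). Leaving out 1 library gave 0 to 1 genes higher in SUDHL6 (25.3 to 27.3% of all tested genes). It gave 1 to 2 of the other replication genes higher in the mean of the lines (29.2 to 30.4%), and 14 to 32 of the 44 by the F-test. Of all tested genes, 50.4 to 63.1% passed the F-test in these fits. Response differences numbered 11 to 24 for SUDHL4 and Farage (31.9 to 44.3% of all tested genes) and 4 to 13 for SUDHL6 and Farage (31.3 to 41.7%). SUDHL6 and SUDHL4 responses differed for 8 to 29 (28.6 to 41%). DMSO differences numbered 16 to 34 for Farage and SUDHL4 (61.3 to 71.5%) and 18 to 29 for Farage and SUDHL6 (66.1 to 75.1%). SUDHL6 and SUDHL4 differed in DMSO for 20 to 31 (64.2 to 72.3%). Over the fits without 1 library, ORC6 in SUDHL6 ran over -0.23 to 0.14, RPA2 in SUDHL6 over -0.082 to 0.23 and RPA2 in Farage over -0.088 to 0.037. The block was not run for the DMSO differences, because it absorbs the line levels. Depth was lowest in the SUDHL6 libraries of number 3.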

Other observations

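The following genes come from the 37 other replication genes and were chosen after their values were seen. UHRF1, which recruits the maintenance methyltransferase to newly made DNA, had log2 differences of -1.64 in SUDHL6, -1.64 in Farage and -2.58 in SUDHL4. DNMT1, that methyltransferase, had -1.35 in SUDHL6, -1.36 in Farage and -1.11 in SUDHL4, and CHAF1B, a subunit of the histone chaperone CAF-1, had -1.51 in SUDHL6, -1.55 in Farage and -1.78 in SUDHL4. The 2 paralogues of the histone chaperone ASF1 differed: ASF1B had -1.07 in SUDHL6, -1.25 in Farage and -0.84 in SUDHL4, while ASF1A had 0.40 in SUDHL6, -0.57 in Farage and 0.02 in SUDHL4 and was called higher in SUDHL6 and lower in Farage. Of the fork protection genes, CLSPN, an adaptor of the replication checkpoint, had -1.41 in SUDHL6, -1.18 in Farage and -2.33 in SUDHL4, and TIMELESS had -1.56 in SUDHL6, -1.11 in Farage and -1.74 in SUDHL4.

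POLE3, a small subunit of polymerase epsilon, had -0.63 in SUDHL6, 0.44 in Farage and -0.80 in SUDHL4, and its response in SUDHL4 minus that in Farage was -1.23 (adjusted p = 2.61e-05). It was called higher in Farage and lower in the other lines. Of the topoisomerases, TOP2A, which is highest in dividing cells, had -1.80 in SUDHL6, -2.24 in Farage and -1.68 in SUDHL4, TOP2B had -0.14 in SUDHL6, -1.10 in Farage and -0.87 in SUDHL4, and TOP1 had -0.03 in SUDHL6, 0.23 in Farage and 0.10 in SUDHL4.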
